A study of Mus musculus with 6 samples.

Results

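The Clca genes were examined in RNA-Seq libraries of mouse primary renal tubular epithelial cells (TECs), with Clca3b as the gene of interest. The 7 members are the protein-coding rows of the deposited table whose symbol starts with Clca, of 30315 rows in all: Clca1, Clca2, Clca3a1, Clca3a2, Clca3b, Clca4a and Clca4b. The group was chosen by the measured values of Clca3b, because its fall with siSox9 was among the largest in the table. For that reason the difference between siSox9 and siNC is given for the members as a description, with no p-value, and where members are counted among called genes nothing is read from the count. The TECs came from kidneys of C57BL/6 mice and were transfected at about 50% confluence. One group of 3 libraries received siSox9, an siRNA against Sox9, and the other group of 3 received the control siRNA siNC. Both groups then went through hypoxia/reoxygenation (H/R), an in vitro stand-in for ischemia-reperfusion injury, with transfection 12 h before 6 h in glucose-free medium at 1.0% oxygen and 18 h of reoxygenation in complete medium. No library without H/R and no untransfected library was part of the comparison. The labels do not say whether the 3 libraries of a group came from separate cultures or animals, so p-values measure only the spread between these samples, which may be technical.

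CLCA proteins were first described as calcium-activated chloride channels and were later found to act mainly as secreted or membrane-anchored regulators of such channels. They carry a metalloprotease-like domain at the amino end, cut themselves, and the best studied member, CLCA1, raises the surface level of the channel TMEM16A, which is encoded by Ano1. CLCA1 is known from goblet cells and their mucus, Clca3a1 and Clca3a2 from epithelia, lung and lymphatic endothelium, and the Clca4 genes from intestinal epithelium. Clca3b has been described mainly in smooth muscle and gut and is much less studied. SOX9, the target of the siRNA, is a transcription factor that marks regenerating tubular cells after kidney injury.

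Sox9 was measured first. With siSox9 the 3 libraries had 8.93, 8.61 and 9.07 FPKM, and with siNC they had 25.7, 26.5 and 25.6 FPKM. FPKM are reads scaled to the exon length of a gene and to the reads of the library. The mean of Sox9 with siSox9 was 34.2% of that with siNC, and all libraries stood in the group of their label. Totals recovered from the values ranged from 23893197 to 25725743 reads per library. Keratins and cadherins of tubular epithelium were high in all libraries, and all 9 genes of the epithelial list passed the filter on low values. Genes of single segments were low. Of 6 proximal tubule genes listed, 5 were in the table, 1 passed that filter and 2 stayed under 0.1 FPKM in all 6 libraries. Of 8 genes of later segments, 0 passed and 6 stayed under 0.1 FPKM.

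The 7 genes lie side by side on the minus strand of chromosome 3 in GRCm38, from 144729677 to 145099443, a stretch of 369.8 kb with 0 other protein-coding genes in it. In genome order they are Clca3a1, Clca3a2, Clca3b, Clca4b, Clca4a, Clca1 and Clca2. Clca3b spans 144822623 to 144849357, and its end is 3.13 kb from the start site of Clca3a2, the shortest gap in the cluster. The others span 144729677 to 144760977 (Clca3a1), 144796559 to 144819494 (Clca3a2), 144910921 to 144932529 (Clca4b), 144952480 to 144975045 (Clca4a), 145003817 to 145032776 (Clca1) and 145070263 to 145099443 (Clca2). The deposited annotation gives the CLCA_N domain for 7 of 7 members, calcium-activated chloride channel activity for 7 of 7, and metallopeptidase activity for 4 of 7. The annotated coding sequence of Clca3b has 3132 bases, for 1044 residues, and those of the other members have 2706 to 2826 bases.

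How far reads can be told apart between the members depends on their likeness. Clca3a1 and Clca3a2 shared 97.1% of aligned coding bases and Clca4a and Clca4b shared 96.0%. Clca3b shared 86.7% with Clca3a1 and 86.7% with Clca3a2, and the remaining pairs shared 56.2% to 63.6%. Of all stretches of 50 bases in the transcripts of Clca3b, 6.68% also occurred in another Clca transcript, most often in Clca3a2. For the others this share was 23.3% (Clca3a1), 23.5% (Clca3a2), 37.1% (Clca4a), 24.8% (Clca4b), 0% (Clca1) and 0% (Clca2). With stretches of 100 bases the share was 0.608% for Clca3b. The values of Clca3a1, Clca3a2, Clca4a and Clca4b are therefore uncertain where the counting could split reads between near-identical copies. Reads of Clca3b may also have been counted for Clca3a2 or Clca3a1, whose levels were far lower, and this was not tested. Most stretches of Clca3b were in no other Clca transcript, but inexact matches and the rest of the genome were not searched. Its 1 transcript of 3361 bases held 2962 different stretches of 50 bases, so part of its sequence occurs in it more than once.

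**Figure D1:**
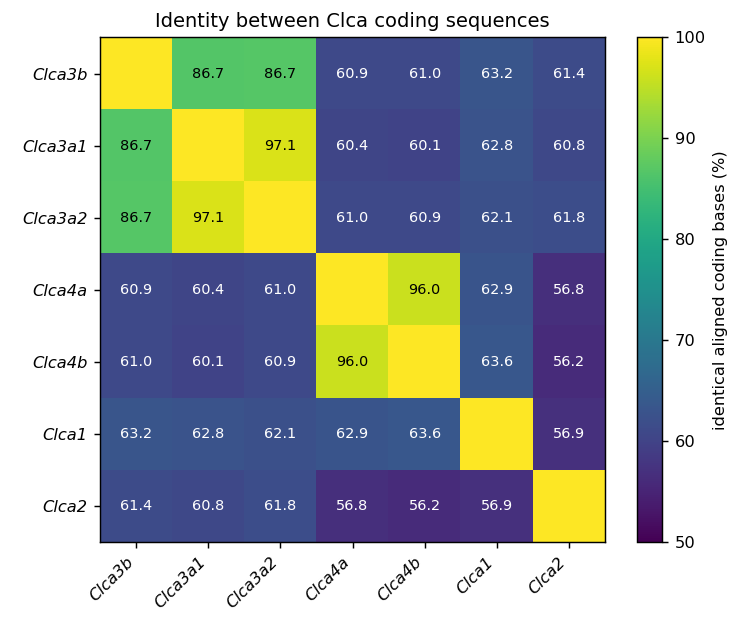
Percent of identical bases in aligned coding sequences for each pair of the 7 Clca genes (GENCODE M21), by colour and number. The pairs Clca3a1 with Clca3a2 (97.1%) and Clca4a with Clca4b (96.0%) stand out, and Clca3b is nearest to Clca3a1 and Clca3a2 (86.7% each).

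The promoter of Clca3b is shown as the sequence next to the start of the one member with an appreciable level. RefSeq (GRCm38.p6) lists a promoter for 5 of the 7 members, and Clca1 and Clca4a have no entry. The deposited start of Clca3b lies 55 bases upstream of the RefSeq start, and the 195 bases before the deposited start, chr3:144849358-144849552 on the minus strand, read as follows, with the matches of ACAAAG and ATGCAAAT in capitals.
Clca3b: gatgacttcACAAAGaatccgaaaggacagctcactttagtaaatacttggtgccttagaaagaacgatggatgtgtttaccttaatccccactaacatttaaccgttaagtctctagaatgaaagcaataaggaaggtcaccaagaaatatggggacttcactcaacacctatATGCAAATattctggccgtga
Motifs were searched on either strand in the 250 bases before the RefSeq start of Clca3b, Clca3a1, Clca2 and Clca4b, and positions are counted from that start. The window of Clca3a2 was not used here, so nothing is said of its motifs. The octamer ATGCAAAT, a motif of POU factors, was found once in Clca3b, at position -76, and in 0 of the other 3 windows, where 1.60% of 32851 RefSeq promoters of this length hold it. The core letters ACAAT of SOX factor sites were not found in the windows of Clca3b and Clca3a1 and were found once each in Clca2 and Clca4b, where 27.7% of all promoters hold them. The related letters ACAAAG were found once in Clca3b, at position -241, and once in Clca2 (16.5% of all promoters). A match of letters is a description and not a binding site.

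Clca3b was the one member with an appreciable level. It had 10.5, 9.47 and 11.0 FPKM with siNC and 4.04, 4.03 and 3.67 FPKM with siSox9. All siSox9 libraries were below all siNC libraries, and the spread within each group was small beside the gap. The means were 10.3 ± 0.766 FPKM (SD, n = 3) with siNC and 3.91 ± 0.208 FPKM (SD, n = 3) with siSox9, so that 37.9% of the siNC level was measured with siSox9. These values rested on 878, 769 and 916 reads with siNC and on 349, 344 and 295 reads with siSox9. Summed over libraries and scaled to the totals, the ratio was 0.379 (95% exact binomial interval 0.352 to 0.408). That interval covers counting error only, since reads without molecular identifiers are not independent molecules. The difference in log2(FPKM + 1) was -1.20 (SE 0.06), the 6th lowest of the 12009 genes that averaged 1 FPKM or more and the 3rd lowest of the protein-coding genes among them. By the ratio of mean FPKM it was the 12th lowest. In bulk RNA, fewer cells that express a gene and less RNA per cell cannot be told apart.

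**Figure D2:**
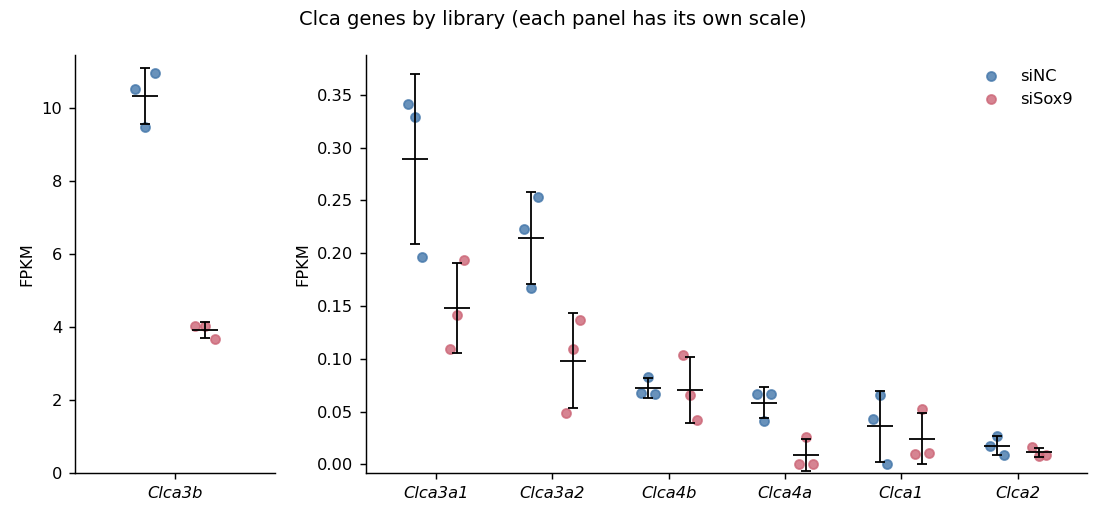
FPKM of the 7 Clca genes by library, with Clca3b in the left panel and the other 6 on a scale of their own in the right panel. Points are libraries (blue siNC, red siSox9) and black bars are the mean and SD of 3. Clca3b sits at 9.47 to 11.0 with siNC and at 3.67 to 4.04 with siSox9, and no other member reaches 0.35 in any library.

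Clca3a1 and Clca3a2, the nearest relatives of Clca3b, were the next in level. Clca3a1 had 0.341, 0.329 and 0.196 FPKM with siNC and 0.110, 0.141 and 0.193 FPKM with siSox9. The groups did not overlap, but the lowest siNC library and the highest siSox9 library were 19 and 18 reads, a gap of 1 read. Summed over libraries the ratio was 0.510 (95% interval 0.344 to 0.746) on 43 reads with siSox9 and 83 with siNC. Clca3a2 had 0.223, 0.167 and 0.253 FPKM with siNC and 0.0489, 0.109 and 0.137 FPKM with siSox9, again without overlap. Its ratio was 0.453 (95% interval 0.281 to 0.714) on 29 and 63 reads. The intervals of both ratios reach above that of Clca3b and overlap it. Clca3a1 is known from lymphatic endothelium, and the summed level of the 4 lymphatic genes fixed as a list was 30.7 to 33.1 FPKM with siSox9 and 39.7 to 40.7 FPKM with siNC. Lyve1 of that list stayed under 0.1 FPKM in all libraries, 1 of the 3 genes tested was lower and 0 higher, and the part of such cells in the result was not tested. The gene that was lower was Flt4, named here after its values were seen.

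The Clca4 genes, known from intestinal epithelium, were near the limit of detection, where 3 reads correspond to 0.0403 FPKM for Clca4a and 0.0404 FPKM for Clca4b. Clca4a had 5, 3 and 5 reads with siNC and 0, 2 and 0 reads with siSox9. In FPKM these were 0.0670, 0.0413 and 0.0670 with siNC, and 0.0262 in the single siSox9 library above 0. The ratio of the summed reads was 0.151 (95% interval 0.0166 to 0.669) on 2 and 13 reads. Clca4b had 5, 6 and 5 reads with siNC and 8, 5 and 3 reads with siSox9, and here the groups overlapped. Its ratio was 0.984 (95% interval 0.461 to 2.1). With 96.0% of coding bases in common, reads of these genes may have been exchanged between them. Clca4c-ps, annotated as a transcribed unprocessed pseudogene, which lies between Clca3b and Clca4b and shares sequence with Clca4a, had 3, 6 and 2 reads with siNC and 0, 2 and 0 with siSox9. For both Clca4a and Clca4c-ps the highest siSox9 library was at 2 reads.

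Clca1, the goblet cell member, had 4, 6 and 0 reads with siNC and 1, 5 and 1 reads with siSox9. Clca2, a member known from stratified epithelium, had 2, 3 and 1 reads with siNC and 2, 1 and 1 reads with siSox9. Neither gene separated the groups, with ratios of 0.689 (95% interval 0.223 to 2.01) for Clca1 and 0.656 (95% interval 0.136 to 2.77) for Clca2. The intervals of Clca1, Clca2 and Clca4b all include 1 and are wide at this depth. Those of Clca1 and Clca2 also include the ratio of Clca3b, 0.379. For Clca1 and Clca2 a change of that size could not be told from none, and for Clca4b smaller changes could not be seen.

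**Figure D3:**
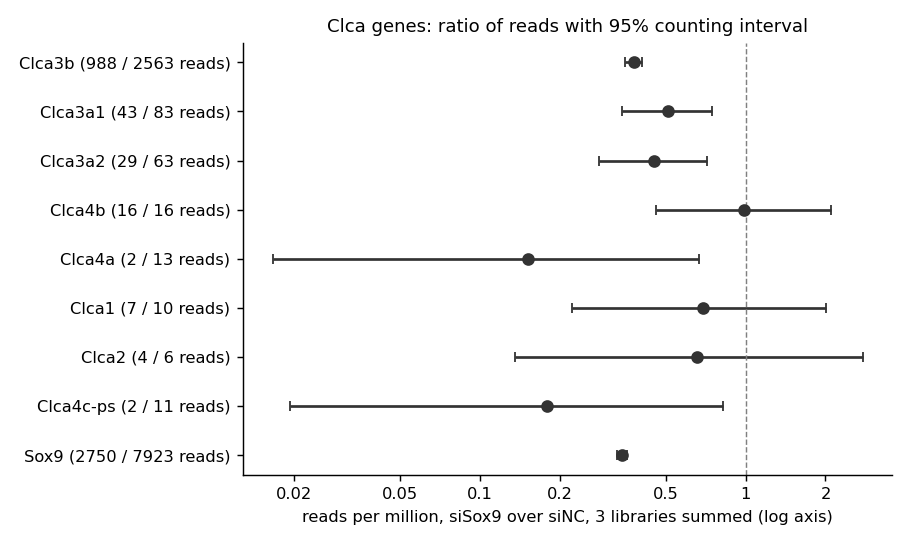
Ratio of reads with siSox9 over siNC for the Clca genes, the pseudogene Clca4c-ps and Sox9, with the 3 libraries of a group summed and scaled to their totals, on a log axis. Points are ratios, bars are 95% exact binomial intervals of counting error, and the reads behind each ratio stand beside the name. Clca3b (0.379) has a narrow interval, and those of Clca1, Clca2 and Clca4b include 1.

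Levels per exon length were ordered in both groups in the same way for the upper members, with Clca3b at the top, then Clca3a1, then Clca3a2, then Clca4b. The mean FPKM of Clca3b was 35.7 times that of Clca3a1 with siNC and 26.4 times with siSox9. With siNC, Clca3a1 and Clca3a2 overlapped, Clca3a2 stood above Clca4b, Clca4b (0.0671 to 0.0829) stood above Clca4a (0.0413 to 0.0670) by less than the value of 1 read, and Clca4a, Clca1 and Clca2 overlapped each with the next. With siSox9, all neighbours in the order after Clca3b overlapped. Clca3b supplied 92.2% to 94.3% of the reads on the 7 genes with siNC and 89.1% to 92.8% with siSox9. In siNC replicate 3, the library with the highest share, the Wilson 95% interval was 92.7% to 95.6%, and in siSox9 replicate 3, the lowest, it was 85.3% to 92.0%. The summed level of the 7 genes was 11.0 ± 0.725 FPKM (SD, n = 3) with siNC and 4.27 ± 0.189 FPKM (SD, n = 3) with siSox9. Without Clca3b the sums were 0.688 ± 0.0858 and 0.362 ± 0.0627 FPKM (SD, n = 3 each), so the sum of the other members was also lower. Most of that sum was Clca3a1 and Clca3a2, for which reads of Clca3b may have been counted. Among all rows of the table, the mean of Clca3b was above 79.7% of genes, and the means of the other 6 members were above 20.6% to 47.8%.

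Of the 7 members, 1 reached the filter, an average of 1 FPKM over the 6 libraries, and entered the fit across all genes. In that fit, by limma on log2(FPKM + 1) with Benjamini-Hochberg adjusted p under 0.05, 30.4% of 12009 genes were called, 17.6% lower and 12.8% higher with siSox9. In numbers, 1532 were higher and 2118 lower, and centring the libraries on their medians gave 1959 higher and 1765 lower. Clca3b was among the lower genes, which its choice had fixed. Without the filter, 5.63% of 28122 genes were called lower, and among the 7 members Clca3b was called and the other 6 were not. With limma voom on the recovered reads, 8.17% of 25759 genes were called lower, and 2 of the 7 members were, Clca3b and Clca4a, the latter on 15 reads in all. The groups did not overlap, with siSox9 lower, in 4 of the 7 members (Clca3b, Clca3a1, Clca3a2 and Clca4a), where 15.5% of the 28122 genes above 0 did so. Since the members were chosen from this contrast, nothing is read from these counts.

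The genes around the cluster were compared to see how far the difference reached along the chromosome. Of the 10 protein-coding genes on each side, 16 were tested, 5 were lower, 0 higher and 11 did not pass. Of all tested genes, 17.6% were lower. The median difference of the 16 in log2(FPKM + 1) was -0.11 where that of all tested genes was -0.01. All 5 lay on the side of Clca3a1. Sh3glb1, the gene next to the cluster, which encodes an endophilin of membrane curvature, had 35.9 ± 0.696 FPKM with siNC and 30.8 ± 0.317 FPKM with siSox9 (difference -0.21, SE 0.03, limma adjusted p = 0.00201). Lmo4, which encodes a LIM-domain cofactor of transcription, had 17.9 ± 0.880 and 13.1 ± 0.491 FPKM (difference -0.43, SE 0.05, limma adjusted p = 0.000746). Gbp2, an interferon-induced GTPase, had 2.65 ± 0.0627 and 2.0 ± 0.128 FPKM (difference -0.28, SE 0.05, limma adjusted p = 0.00829). Selenof and Pkn2 were lower by smaller amounts, with differences of -0.14 each and limma adjusted p of 0.0404 and 0.0185. Each was called in 2 of the 6 fits that left out a library, with TPM neither was called, and Selenof was also lost without the filter, with a minimum of 0.1 FPKM and with median-centred values. On the side of Clca2, the nearest gene Odf2l had 2.40 ± 0.0764 FPKM with siNC and 2.14 ± 0.144 FPKM with siSox9 and did not pass (limma adjusted p = 0.157), and 0 of the 8 genes tested there were called by limma or had an unadjusted p under 0.05. By limma voom on the recovered reads, 8 of the 20 were lower, with Cyr61 and Ddah1 of that side among them, where 8.17% of all genes were lower. The count was 3 of 16 without siNC replicate 2, without siNC replicate 3 or without siSox9 replicate 1, and Sh3glb1, Lmo4 and Gbp2 passed in all 6 fits that left out a library. None of these differences came near the -1.20 of Clca3b.

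**Figure D4:**
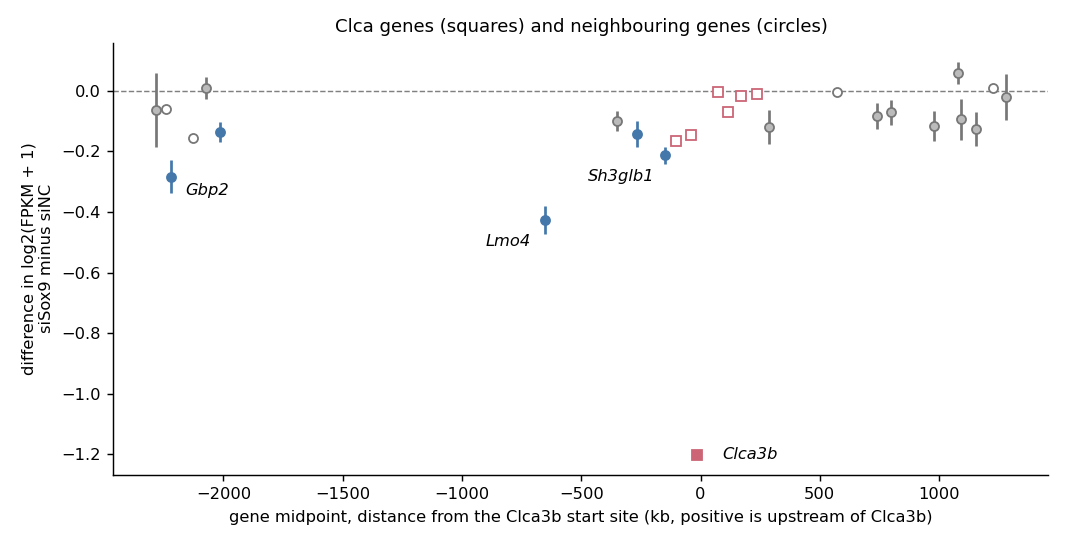
Difference in log2(FPKM + 1), siSox9 minus siNC, against the distance in kb of each gene's midpoint from the Clca3b start site, with positive distances upstream. Squares are Clca genes and circles the 10 nearest protein-coding genes on each side; filled blue circles were called lower by limma, grey ones were not called, open symbols had a mean under 1 FPKM, and bars are SE. Clca3b lies at -1.20, and Lmo4, at -0.43, is the lowest of the other genes.

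Gene families tied to calcium-activated chloride channels were looked at because CLCA1 acts on the channel encoded by Ano1. No action of CLCA proteins on the other genes of these families is claimed. The list of 16 anoctamin, bestrophin and Ttyh genes had 7 tested members, of which 1 was higher, 2 were lower and 4 did not pass. Of all tested genes, 30.4% were called in either direction. The median difference of the 7 was -0.11. Ano1, which encodes the channel that CLCA1 stabilises, rose from 35.8 ± 0.957 FPKM with siNC to 42.1 ± 0.716 FPKM with siSox9 (difference 0.23, SE 0.03, limma adjusted p = 0.00228). Ttyh2 fell from 6.6 ± 0.0376 to 5.15 ± 0.159 FPKM (difference -0.31, SE 0.04, limma adjusted p = 0.00127). Both passed in all 6 fits that left out a library. Ano8 fell from 5.99 ± 0.480 to 5.00 ± 0.148 FPKM (difference -0.22, limma adjusted p = 0.0258) and was called in 1 of these 6 fits, that without siNC replicate 2. Leaving out a library gave 2 to 4 calls in the list: 4 without siNC replicate 2 and 2 in each of the other fits. Ano1 and Clca3b thus differed in opposite directions, and the summed level of the 16 genes was 140.6 to 147.4 FPKM with siSox9 and 140.6 to 148.9 FPKM with siNC.

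Among 22 other chloride channel genes, 15 were tested, 2 were higher, 5 were lower and 8 did not pass, where 30.4% of all tested genes were called. The median difference of the 15 was -0.08. Clcn5, the endosomal chloride-proton exchanger of proximal tubule cells, rose from 41.9 ± 1.13 to 64.6 ± 1.12 FPKM (difference 0.61, SE 0.03, limma adjusted p = 6.21e-05). It was called in all 6 fits that left out a library. Of the volume-regulated channel subunits, Lrrc8d rose by 0.17 (limma adjusted p = 0.0181) and Lrrc8b and Lrrc8c fell by 0.11 and 0.10 on the log2 scale (limma adjusted p = 0.0340 and 0.0426). Clcn4, a relative of Clcn5, fell by 0.20 (limma adjusted p = 0.0156), and Cftr, the cystic fibrosis channel, fell by 0.23 (limma adjusted p = 0.0366). Of these genes, Cftr and Lrrc8c were called in 0 of the 6 fits that left out a library, Lrrc8b in 1, and Clcn4 and Lrrc8d in 4 each. The count for the list was 4 without siNC replicate 3, 3 without siSox9 replicate 1 or replicate 3, and 2 without siSox9 replicate 2. Ranked by mean FPKM among the 45 chloride channel and Clca genes, Clca3b was 11th with siNC, between Lrrc8b (13.1) and Clcn4 (9.37), and 17th with siSox9, between Ano8 (5.00) and Lrrc8a (2.72).

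**Figure D5:**
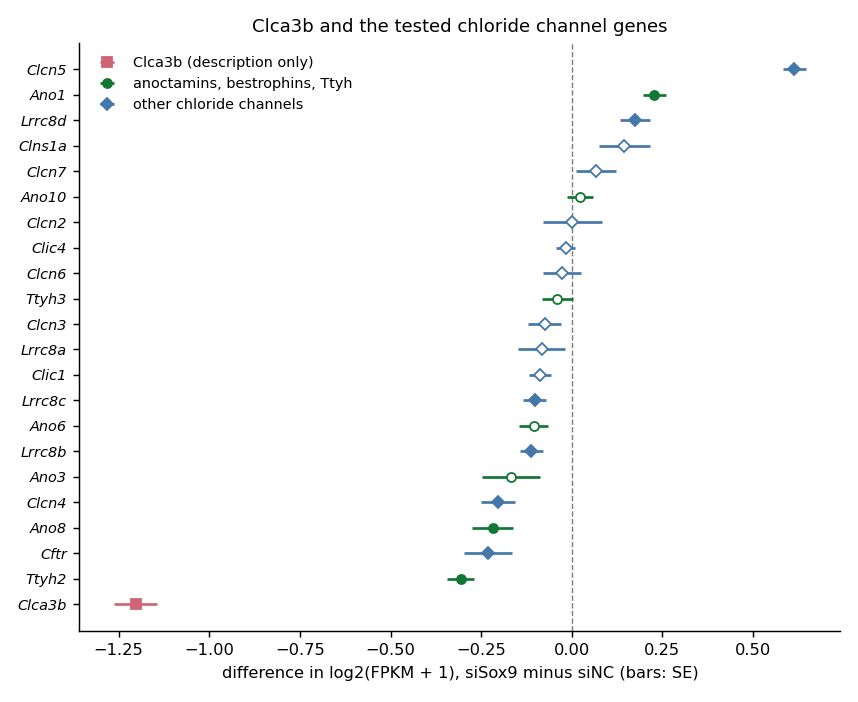
Difference in log2(FPKM + 1), siSox9 minus siNC, for Clca3b and tested genes of the chloride channel lists, with SE bars from limma. Filled symbols were called at an adjusted p under 0.05 and open ones were not; Clca3b (red square) is a description. Among the genes drawn, Clca3b at -1.20 is the lowest and Clcn5 at 0.61 the highest.

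Genes tied to CLCA proteins in other settings were mostly near or below detection, and of those tested only Itga6 was called. Of 15 goblet cell and mucin genes, 13 were in the table and 7 of these were under 0.1 FPKM in all libraries: Muc2, Muc5ac, Muc5b, Spdef, Agr2, Fcgbp and Zg16. Agr2 was listed at 0 throughout. Muc1 and Muc20 were tested, and 0 were called by limma, 1 had an unadjusted p under 0.05, and limma voom called 0 of 11. Muc1, a membrane mucin, had 4.06 ± 0.141 FPKM with siNC and 4.60 ± 0.293 FPKM with siSox9 (limma adjusted p = 0.0738). The integrin β4, to which CLCA proteins bind in adhesion, had 53.9 ± 2.30 FPKM with siNC and 53.6 ± 1.28 FPKM with siSox9 for Itgb4 (limma adjusted p = 0.920). Its partner Itga6 fell from 18.9 ± 0.512 to 17.3 ± 0.396 FPKM (difference -0.12, SE 0.03, limma adjusted p = 0.0388) and was called in 0 of the 6 fits that left out a library.

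Clca3b has been described in smooth muscle. The summed level of 8 fibroblast and smooth muscle genes was 684.5 to 737.0 FPKM with siSox9 and 767.6 to 808.5 FPKM with siNC. Most of that sum was Acta2, at 686.1 FPKM with siSox9 and 727.2 FPKM with siNC. Acta2 overlapped between the groups and was not called (limma adjusted p = 0.179), so the sum does not describe the list as a whole. Of the 3 tested, 1 was lower and 0 higher. The lower gene was Cnn1, a smooth muscle calponin, named here after its values were seen. It was at 24.5 FPKM with siSox9 and 58.6 FPKM with siNC. Myh11 of that list was low, at 0.333 FPKM with siSox9 and 0.493 FPKM with siNC, and Dcn stayed under 0.1 FPKM in all libraries. The means of Pdgfra and Dcn were slightly higher with siSox9, and those of the other genes of the list lower. The epithelial list, at 4098 to 4255 FPKM with siSox9 and 3944 to 4148 FPKM with siNC, had 1 of 9 genes higher and 0 lower. That gene was Cdh16, also named after its values were seen. Other lists also stood apart between the groups. The 4 podocyte genes summed to 7.82 to 8.58 FPKM with siSox9 and 12.2 to 12.5 FPKM with siNC, with Nphs1 at 0 throughout. The 5 endothelial genes summed to 2.91 to 3.10 and 3.22 to 4.12 FPKM. The means of Kdr and Tek were higher with siSox9, and those of the other endothelial genes lower. Only Cdh5 of these was tested, and it overlapped between the groups and was not called (limma adjusted p = 0.449). The 6 macrophage genes summed to more with siSox9, 104 to 114 against 92.6 to 99.1 FPKM. Most of that sum was Lyz2, at 83.4 FPKM with siSox9 and 71.9 FPKM with siNC. The means of Adgre1, Cd68 and Itgam were also higher with siSox9, and those of Ptprc and Csf1r lower. The 6 urothelial and basal genes in the table summed to 1.35 to 1.59 against 0.765 to 1.11 FPKM. Upk1a and Upk2 were higher there without overlap. The mean of Krt14 was slightly higher, and those of Upk1b, Krt5 and Trp63 were lower. The part of any of these cell types in the result for Clca3b was not tested.

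The 5 protein-coding genes whose log2(FPKM + 1) was most like that of Clca3b over the 6 libraries were Arhgap35, Reep3, Pxdn, Iqgap3 and Jak2, with Pearson r of 1.00, 1.00, 0.999, 0.999 and 0.998. All were lower with siSox9, from -0.63 (Iqgap3) to -0.38 (Arhgap35). Since the libraries form 2 groups, r here mostly measures the difference between them. Of 10783 protein-coding genes tested, 993 (9.21%) had r over 0.95 with Clca3b. No other member averaged 1 FPKM or more, so none was compared in this way.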

How the data were processed

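RNA-Seq was performed on 3 siSox9 and 3 siNC libraries of mouse primary renal TECs. The values the authors deposited are FPKM for each gene and library. The submitters' processing notes name HISAT2 2.1.0, Bowtie2 2.2.3, TopHat2 and mm9 without roles, but the positions in the file are those of GENCODE M21 (GRCm38) for 93.3% of 30246 shared genes. Columns were matched to siSox9 by an siRNA name other than that of siNC. The number of sample columns left out was 0. Members and gene lists were chosen with earlier results of these data known.

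Whole reads were recovered with GENCODE M21 exon lengths (27948 genes whole in all 6 libraries, within 0.02 reads). Limma 3.58.1 in R 4.3.3 (lmFit, eBayes with a trend) was run on log2(FPKM + 1) over genes that averaged 1 FPKM or more, without a replicate block. Fold changes on this scale understate those of low genes. Calls needed a Benjamini-Hochberg adjusted p under 0.05. On simulated reads for this comparison, limma called 97 of 99 genes changed 2-fold among 10473 tested. It called 175 of all 198 changed genes, and 10 unchanged genes. The simulation used the same setting of spread for all genes and changed far fewer genes than were called here. It therefore does not give the error rate in these data. The recovery of reads was also tested on simulated reads. Coding sequences were aligned with Biopython 1.88. Alternatives were a pseudocount of 0.1, other filters, TPM, median-centred and quantile values, the replicate block, limma voom on the reads and leaving out each library.

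Some items that these rules would name are not reported here. Genes named are the members, Clca4c-ps, Sox9, called genes of the chloride channel lists, the 10 neighbours on each side, the mucin list, Itgb4 and Itga6, the 5 genes most like Clca3b, and markers where stated.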

Additional observations from a re-analysis of the deposited data

How the results depend on the processing

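The difference of Clca3b in log2(FPKM + 1), -1.20, was a description of the values that chose it, and came to -1.38 with a pseudocount of 0.1, -1.31 with TPM, -1.40 by limma voom on the reads, and -1.26 to -1.16 when 1 library was left out. Of the 7 members, 2 were called by limma voom and 1, Clca3b, in each other alternative; its call was fixed by its choice and is no sign of stability. Over all genes, 3650 were called, 2549 with TPM and 2424 to 3654 when 1 library was left out. Of other chloride channel genes, 7 were called, 2 with TPM, 4 with median-centred values, and 2 to 6 when 1 library was left out. Of the neighbours, 5 were called, 3 with TPM, 8 by limma voom, which tested 20 in place of 16, and 3 to 7 when 1 library was left out. Under a replicate block (the number in the labels), 3262 genes, 4 other chloride channel genes and 5 neighbours were called. Same-numbered libraries did not deviate together (r of -0.05 to 0.06 over 3 pairs), and 2 of the 6 libraries correlated best with their own number. Pairing by number was thus not seen, and with 3 pairs this check cannot exclude it. Other causes of these changes were not tested. Of 74 values of the other 6 members under alternatives, 68 kept the sign, and the rest were of Clca4b (3), Clca1 (2) and Clca2 (1). Values under other filters and the replicate block equal the main value by construction, so their sign could not change. The count of 68 is thus no measure of stability. Depth limits the members other than Clca3b, since 3 reads are 0.0260 to 0.0404 FPKM.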
